A study of Mus musculus with 18 samples.

Results

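The genes described here are the Wnt ligands, their receptors and the secreted proteins that hold them back, with the R-spondins that strengthen the signal and the Axin scaffolds inside the cell. They were taken by gene symbol: every Wnt, frizzled (Fzd), Sfrp, Dkk and Rspo gene, Lrp5 and Lrp6, Lgr4 to Lgr6, Wif1, Frzb, Axin1 and Axin2. The rule found 50 of the 21899 gene IDs in the deposited tables: 19 ligands, 12 receptors and co-receptors, 7 genes of the R-spondin axis, 10 secreted antagonists and 2 scaffolds. Poly(A) RNA was sequenced from the inguinal white fat pad of male C57BL/6J mice. Into the space under their skin the mice were given either phosphate-buffered saline (PBS) or cells of LLC, a transplantable line grown from a Lewis lung carcinoma. Fat was taken after 7 days, which the labels name the pre-cachexia stage, from 4 control and 5 tumour-bearing samples. It was taken after 21 days, the stage named cachexia for the loss of body mass that a tumour can cause, again from 4 control and 5 tumour-bearing samples.

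Wnt proteins are lipid-modified signals that act over short distances. A Wnt bound to a frizzled receptor and to LRP5 or LRP6 stops the destruction complex, built on Axin, from degrading beta-catenin, which then switches on genes with TCF and LEF factors; other Wnts, typically Wnt5a and Wnt11, act mainly through branches that do not need beta-catenin. R-spondins bind LGR receptors and keep frizzleds at the cell surface, while Sfrp proteins and Wif1 bind Wnts and Dkk proteins block LRP5 and LRP6. In fat, Wnt10b is known for holding preadipocytes back from becoming fat cells, and several ligands and Sfrp proteins are known as products of the progenitor and stromal cells that lie between the fat cells.

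The labels number the samples within a group and do not say whether each is 1 mouse, and no label or file used here states how old the mice were. The p-values therefore speak only to how far these samples spread, and some of that spread may be technical. Day 7 and day 21 samples also differ in the age of the mice and possibly in handling, and these cannot be told apart from the time after injection. All 12 markers of mature fat cells were detected, with a summed level of 29100 to 73100 CPM per library (CPM being counts scaled to a common library total), and Adipoq, the fat cell hormone, measured 1200 to 3230 CPM. Markers of the surrounding cells were uneven: in day 21 PBS libraries 1 to 3 the 10 macrophage markers summed to 256 to 416 CPM against 991 to 3520 CPM in the other 15 libraries, and the 6 lymphatic endothelial markers to 26.8 to 39.3 CPM against 135 to 330 CPM. The 16 progenitor and fibroblast markers summed to 3280 to 5270 CPM in those 3 libraries, to 18800 CPM in day 21 PBS library 4 and to 16900 CPM in day 21 LLC library 1. Skeletal muscle markers were highest in day 7 PBS library 3 (7760 CPM) and day 21 PBS library 1 (5600 CPM). In bulk tissue, fewer cells of a type and less RNA per cell cannot be told apart.

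Of the 50 genes, 33 had enough counts for a test in the fit of all 18 libraries, 32 in the day 7 comparison and 31 in the day 21 comparison. The 17 without a test had between 0 and 294 counts over all 18 libraries, and Wnt3a, Wnt7a and Wnt8a had 0 counts in every library, where 3 counts would have been 0.147 to 0.211 CPM. Levels of different genes are compared in TPM, a unit scaled for transcript length as well as depth. Among the ligands Wnt5a was highest with a mean of 11.9 TPM over the 18 libraries (SD 3.97), above Wnt11 in 15 of the 18. Wnt11 (7.58 TPM), Wnt10b (7.32 TPM) and Wnt2 (6.74 TPM) followed, and their order changed from library to library: Wnt11 exceeded Wnt10b in 13 and Wnt10b exceeded Wnt2 in 8. The remaining 15 ligands had means of 2.03 TPM or less.

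Fzd4, which is also the receptor of norrin in blood vessels, was the dominant frizzled with 110 TPM (SD 27.5), 73.1% of the summed frizzled TPM on average and 55.3% to 81.2% in single libraries. It stood above every other receptor in all 18 libraries. The co-receptors Lrp5 (36.8 TPM) and Lrp6 (32.7 TPM) came next, then Fzd1 (14.7 TPM). Lgr4 (13.7 TPM) made up 96.9% of the summed TPM of the 3 LGR receptors, whereas the 4 R-spondins together reached only 0.325 to 3.05 TPM per library. Sfrp2 (88.9 TPM), Sfrp4 (44.0 TPM) and Sfrp5 (17.5 TPM) led the antagonists, and Axin1 (18.8 TPM) exceeded Axin2 (7.39 TPM).

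**Figure D1:**
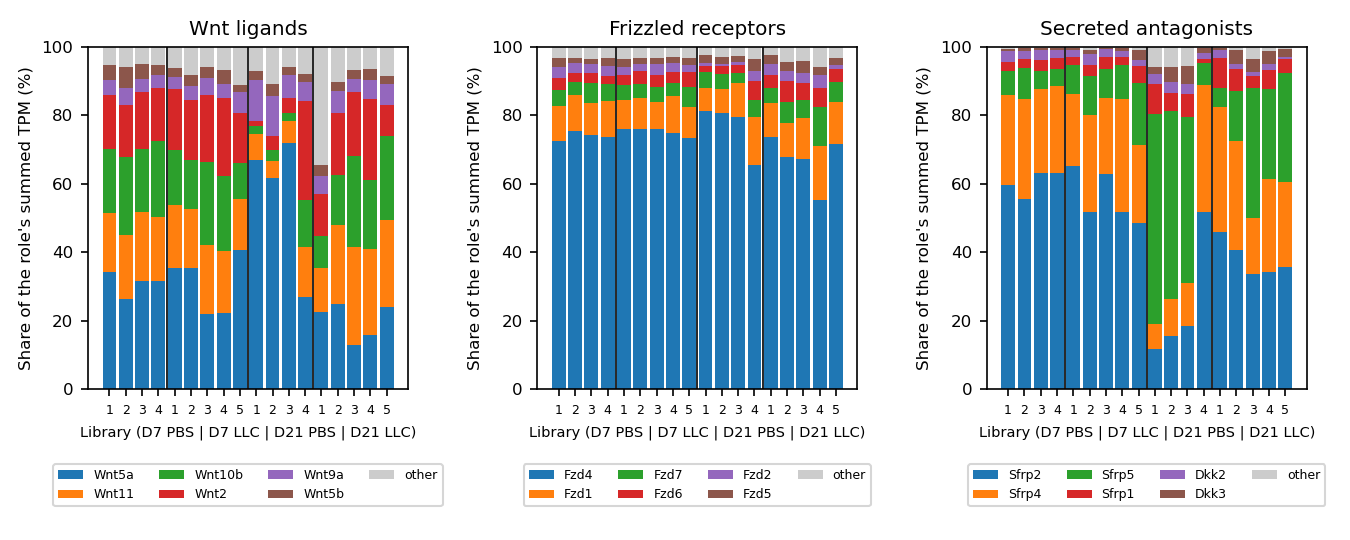
Share of each gene in the summed TPM of the Wnt ligands, of the frizzled receptors and of the secreted antagonists (y axis, percent), 1 bar per library in the order day 7 PBS, day 7 LLC, day 21 PBS and day 21 LLC. Fzd4 holds 55.3% to 81.2% of the frizzled sum, and in day 21 PBS libraries 1 to 3 Wnt5a holds 61.6% to 71.9% of the ligand sum and Sfrp5 48.3% to 61.2% of the antagonist sum.

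The make-up of the ligands and antagonists stood apart in day 21 PBS libraries 1 to 3. Wnt5a held 67.1%, 61.6% and 71.9% of the ligand TPM there and 26.9% in PBS library 4, against 13.0% to 24.8% in the 5 day 21 LLC libraries and 22% to 40.6% in the 9 day 7 libraries. Sfrp5, an antagonist made by fat cells themselves, held 61.2%, 55.0% and 48.3% of the antagonist TPM in PBS libraries 1 to 3, against 4.85% to 37.9% in the other 15. The summed ligand TPM was 56.1 ± 6.81 in day 7 PBS (SD), 41.7 ± 12.2 in day 7 LLC, 21.9 ± 9.51 in day 21 PBS and 41.0 ± 15.2 in day 21 LLC. The summed antagonist TPM was 287 ± 51.5, 196 ± 82.2, 76.1 ± 104 and 98.3 ± 68.2 in the same order, with 16.8 to 27.8 in day 21 PBS libraries 1 to 3 and 232 in library 4. These sums were not tested.

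**Figure D2:**
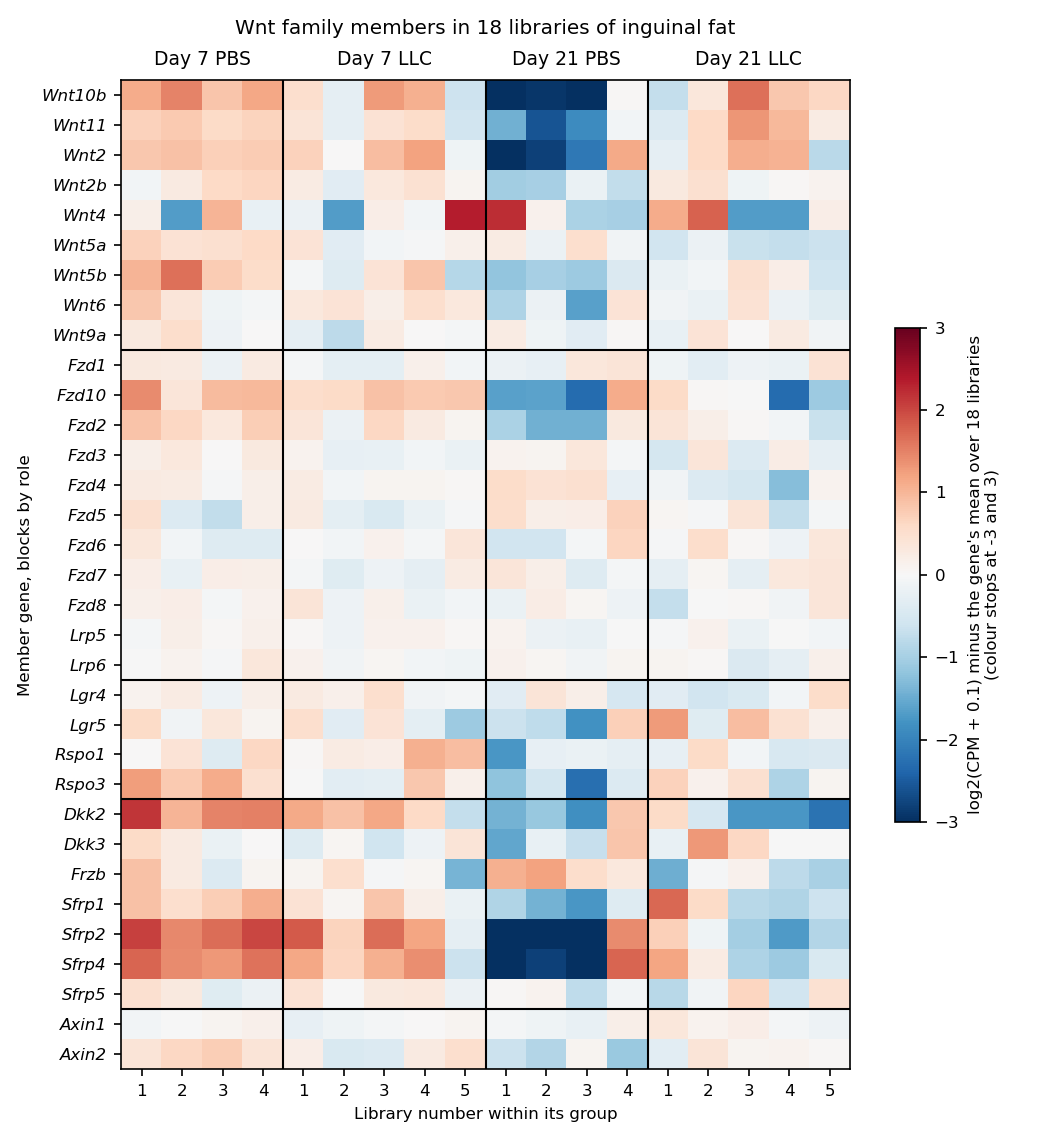
Levels of the 33 tested genes in 18 libraries, as log2(CPM + 0.1) minus the gene's mean over the libraries (colour, stopping at -3 and 3), with 1 column per library and horizontal lines between roles (ligands, receptors, R-spondin axis, antagonists, scaffolds). The darkest blue cells are Wnt10b, Wnt2, Sfrp2 and Sfrp4 in day 21 PBS libraries 1 to 3, while library 4 of that group resembles the day 7 columns for these genes.

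Of the 5 comparisons in their main fits, only that between the 2 sets of PBS controls gave calls. LLC against PBS was fitted in the libraries of each day alone. In the fit of 18 libraries it also gave 7 calls at day 21, where 19% of genes were called. In PBS, 7 of the 33 tested genes fell from day 7 to day 21 and none rose. Of the 13975 genes tested 3.21% were called, 2.52% as lower (edgeR quasi-likelihood test, adjusted p under 0.05 over all genes, in 1 fit of 18 libraries). The 7 were the ligands Wnt5b, Wnt11, Wnt2b and Wnt10b, the R-spondin Rspo3, the receptor Fzd2 and the scaffold Axin2. The 2 PBS groups did not overlap for 10 of the 33, all lower at day 21 (16.3% of genes did not overlap, 8.38% as lower). 28 of the 33 had a negative log2 fold change, against 49.1% of genes, and the median was -0.41 against 0.01 over all genes. The count rested on single libraries: it was 14 without day 21 PBS library 4, where 12% of genes were called, but 0 without day 7 PBS library 2 (0.571% of genes) or without day 21 PBS library 1 (0.657%) or 2 (0.29%). It was 1 without day 7 PBS library 3 (1.29%) or 4 (0.459%), Wnt5b both times, and 1 without day 21 PBS library 3 (0.586%), Axin2. Without day 7 PBS library 1 it was 2, Wnt5b and Wnt1 (1.1%). Further choices were made after the data were seen: fitting only the 8 PBS libraries called 4 (6.01%), and leaving out the 2 day 7 libraries with high muscle markers, PBS 3 and LLC 3, called 1, Wnt5b (0.907%). That choice did not remove muscle from day 21. Muscle markers summed to 5600 CPM in day 21 PBS library 1 and 2470 CPM in LLC library 2, above the 1790 CPM of day 7 LLC library 3.

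In the tumour-bearing mice none of the 33 passed between day 7 and day 21, where 1.77% of genes were called. 3 had an unadjusted p under 0.05, all lower (18.6% of genes, 7.71% as lower): Wnt5a, Dkk2 and Fzd4. No gene of the 33 had groups that did not overlap, against 3.33% of genes, and the median was -0.08 against 0.05. DESeq2 called 1, Wnt5a, where it called 5.82% of genes. Without day 21 LLC library 1 the edgeR count was 2, Wnt5a and Dkk2 (7.44% of genes), and without LLC library 2 it was 1, Wnt5a (4.32%).

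LLC against PBS at day 7 gave no call among the 32 tested, where 0.00744% of genes were called. 10 of the 32 had an unadjusted p under 0.05, all lower in LLC: Wnt5a, Wnt5b, Wnt11, Fzd1, Fzd2, Fzd3, Rspo3, Dkk2, Sfrp1 and Axin2. Over all genes 8.51% had such a p and 3.64% had one as lower. 27 of the 32 had a negative log2 fold change, against 48.9% of genes, and the median was -0.29 against 0 over all genes. The groups did not overlap for Wnt5a and Wnt11 alone, both lower (2.52% of genes, 1.35% as lower). DESeq2 called none of the 32 either, where it called 0.595% of genes. In day 7 LLC library 5 the progenitor and fibroblast markers summed to 7330 CPM. They summed to 16700 to 20000 CPM in the other day 7 LLC libraries and 15500 to 23500 CPM in day 7 PBS. Of the 10 genes, library 5 was the lowest of its group for Wnt5b, Wnt11, Dkk2 and Sfrp1 but not for the others, and for Axin2 it was the highest. The part of these cells was not tested.

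LLC against PBS at day 21 gave no call among the 31 tested, where 0.0885% of genes were called. 10 had an unadjusted p under 0.05 (23.3% of genes). Of these, Wnt10b, Wnt11, Wnt2b, Wnt5b, Rspo3, Sfrp1 and Axin2 were higher in LLC, and Wnt5a, Frzb and Fzd4 were lower (11.9% and 11.5% of genes). The groups did not overlap for 3, Wnt2b as higher and Wnt5a and Frzb as lower, a share of 9.68% against 9.7% of genes (5.23% as higher, 4.47% as lower). 20 of the 31 had a positive log2 fold change, against 51.9% of genes, and the median was 0.15 against 0.02. DESeq2 called 4 (Wnt10b, Wnt11, Wnt5a, Frzb), where it called 11.4% of genes, and 1 edgeR fit of all 18 libraries called 7, where it called 19% of genes. The edgeR count was also 7 without day 21 PBS library 4 (Wnt10b, Wnt11, Wnt2, Fzd2, Sfrp2 and Sfrp4 as higher and Wnt5a as lower), where 9.3% of genes were called.

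The tumour effect at day 21 minus that at day 7 had an unadjusted p under 0.05 for 8 of the 33 genes, all positive (18.2% of genes, 10.2% as positive): Wnt10b, Wnt11, Wnt2b, Wnt5b, Rspo3, Fzd2, Sfrp1 and Axin2. None passed over all genes, where 0.415% did. 27 of the 33 were positive, against 55.1% of genes. DESeq2 called 5 of them (Wnt10b, Wnt11, Wnt5b, Rspo3 and Axin2; 5.17% of genes). Without day 21 PBS library 4 edgeR called 9 (8.64% of genes), and without day 21 LLC library 1 it called 1, Wnt11 (1.2%). This contrast and the comparison of the PBS groups use the same PBS libraries, so they are not independent.

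**Figure D3:**
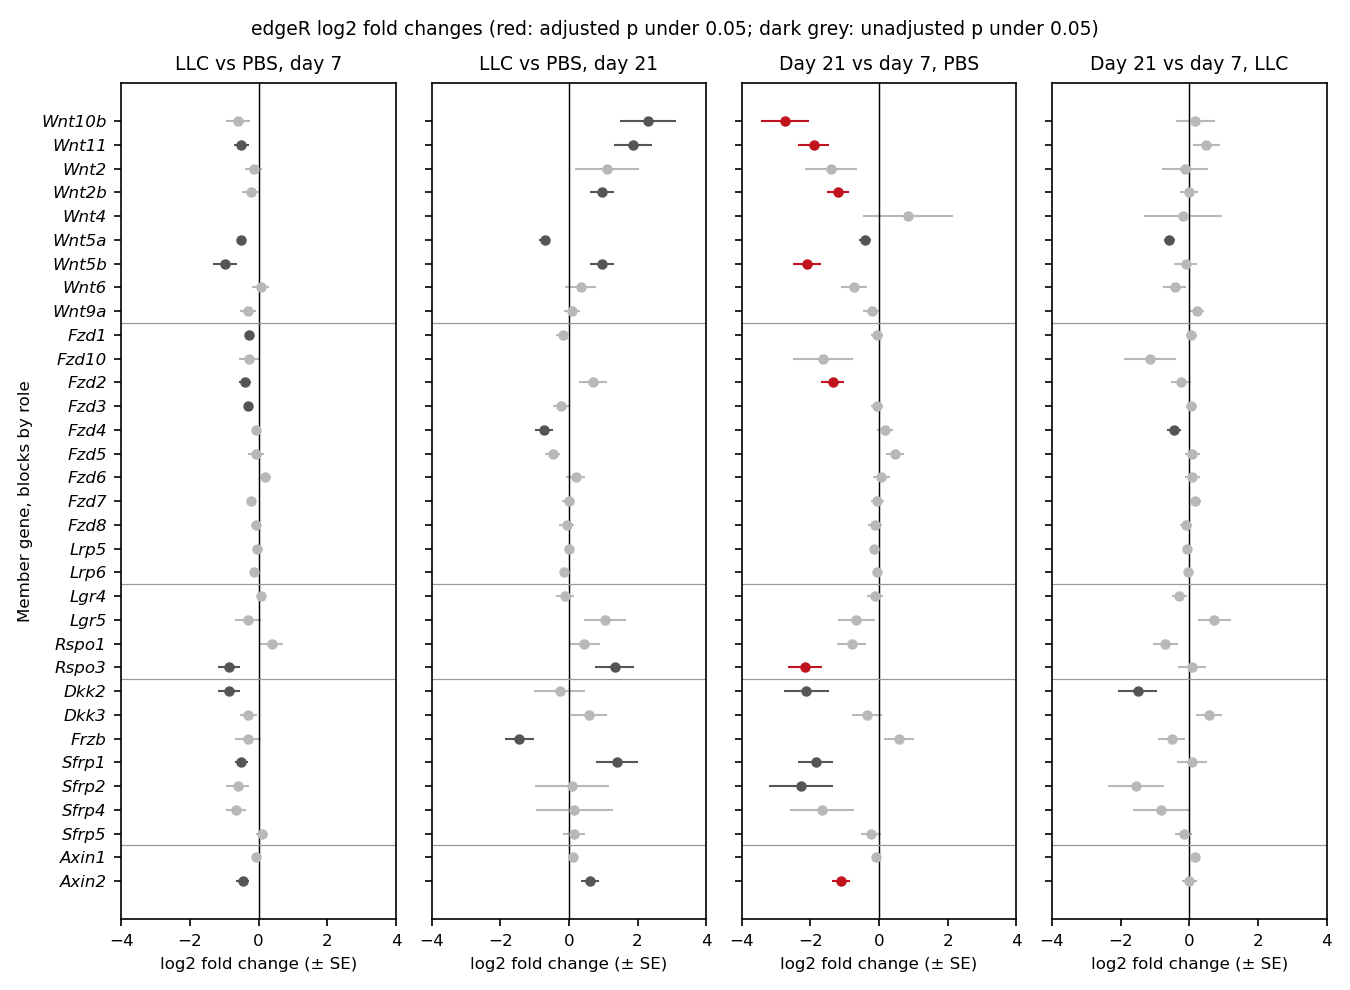
Log2 fold change with its SE (x axis) for each tested gene (y axis, lines between roles) in 4 comparisons, from edgeR. Red points have an adjusted p under 0.05, which occurs only for 7 genes in the panel of day 21 against day 7 in PBS, all of them left of 0.

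Among the ligands, Wnt10b (chromosome 15, 98770712 to 98778150, minus strand) had one of the widest ranges. It measured 13.7, 17.9, 11.3 and 14.3 CPM in the day 7 PBS libraries and 0.542, 0.755, 0.652 and 6.51 CPM in the day 21 PBS libraries. In LLC it measured 8.97, 5.26, 15.4, 13.3 and 4.08 CPM at day 7 and 3.83, 8.07, 20, 11.2 and 9.74 CPM at day 21. Day 21 PBS library 4 was the highest of its group and lay inside the range of both LLC groups, and the other 3 lay below all other libraries. From day 7 to day 21 Wnt10b fell by 2.75 ± 0.70 on the log2 scale in PBS (SE; edgeR adjusted p = 0.0435), from 14.3 ± 2.73 to 2.12 ± 2.93 CPM (SD). The LLC-minus-PBS log2 difference at day 21 was 2.30 ± 0.82 (adjusted p = 0.145) and at day 7 -0.60 ± 0.34 (adjusted p = 0.685).

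Wnt11 (chromosome 7, 98835112 to 98855195, plus strand) had a similar pattern. It measured 8.18, 8.73, 7.64 and 8.07 CPM in day 7 PBS and 1.81, 0.755, 1.30 and 4.79 CPM in day 21 PBS. LLC libraries measured 6.68, 4.19, 6.86, 7.49 and 3.37 CPM at day 7 and 3.78, 7.72, 12.8, 10 and 6.00 CPM at day 21. At day 7 every LLC value lay below every PBS value, while at day 21 PBS library 4 exceeded LLC library 1 and the groups overlapped. In PBS Wnt11 fell by 1.91 ± 0.46 on the log2 scale (edgeR adjusted p = 0.0356). The tumour effect was -0.50 ± 0.22 at day 7 (adjusted p = 0.567) and 1.87 ± 0.56 at day 21 (adjusted p = 0.109), and the later minus the earlier effect was 2.40 ± 0.60 (adjusted p = 0.0716). Without day 21 LLC library 1 that difference passed.

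Wnt5b (chromosome 6, 119432531 to 119544347, minus strand) measured 2.88, 4.48, 2.40 and 2.05 CPM in day 7 PBS and 0.542, 0.630, 0.587 and 0.983 CPM in day 21 PBS. The LLC libraries measured 1.30, 1.02, 1.84, 2.50 and 0.703 CPM at day 7 and 1.18, 1.29, 1.93, 1.58 and 0.867 CPM at day 21. The 2 PBS groups did not overlap, and here library 4 of day 21 stood only slightly above its group. In PBS Wnt5b fell by 2.10 ± 0.40 on the log2 scale (edgeR adjusted p = 0.0137). It passed in 15 of the 19 alternatives tried, more than any other of the 7 genes. The tumour effect was -0.98 ± 0.36 at day 7 (adjusted p = 0.53) and 0.97 ± 0.35 at day 21 (adjusted p = 0.146).

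Wnt2b (chromosome 3, 104945272 to 104961921, minus strand) was a low gene, with 0.917, 1.20, 1.54 and 1.58 CPM in day 7 PBS and 0.422, 0.441, 0.848 and 0.553 CPM in day 21 PBS. LLC libraries had 1.18, 0.752, 1.24, 1.38 and 1.05 CPM at day 7 and 1.23, 1.40, 0.893, 1.01 and 1.07 CPM at day 21. All day 21 PBS values lay below all day 7 PBS and all day 21 LLC values. Wnt2b fell by 1.20 ± 0.31 on the log2 scale in PBS (edgeR adjusted p = 0.0434), a call that held in 6 of 19 alternatives. At day 21 the LLC-minus-PBS difference was 0.96 ± 0.34 (adjusted p = 0.14).

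**Figure D4:**
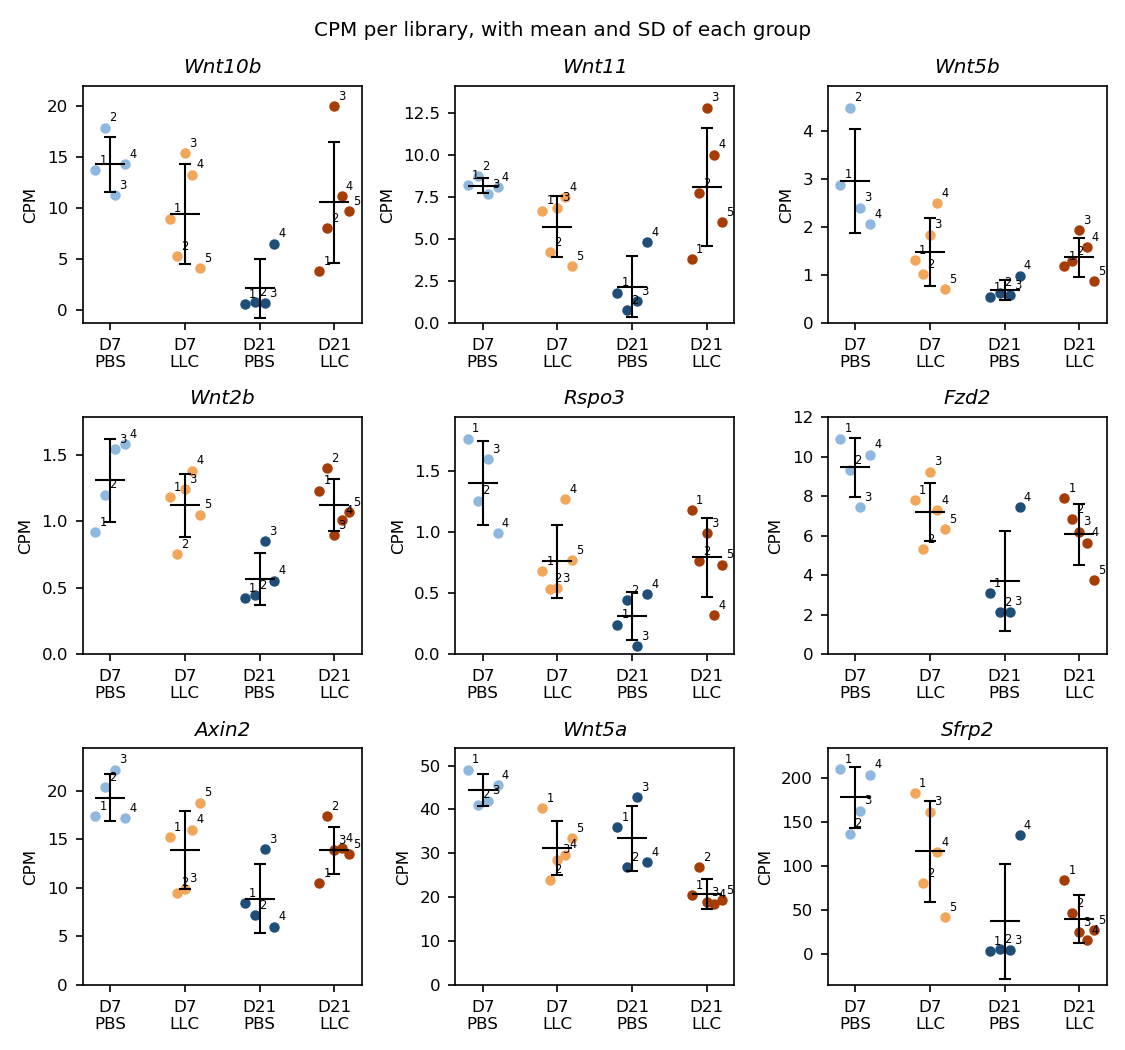
CPM in every library (points, numbered within the group) with group mean and SD (lines) for 9 genes, y axes in CPM. The 7 genes that fell in PBS have day 21 PBS values below all day 7 PBS values, and day 21 PBS library 4 stands above the other 3 for Wnt10b, Wnt11, Fzd2 and Sfrp2.

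The upstream sequences of the called genes are shown because these genes fell in the same comparison. RefSeq promoter entries (GRCm38.p6), reduced to the 250 bases before the start, matched 32 of the 50 genes with 35 starts, and 5 of the 7 called genes had one. 2 motifs were searched on both strands: CTTTGA, the core bound by TCF and LEF factors, and GGGGCGGGG, a GC box. Capitals mark their matches, and a longer run of capitals is 2 overlapping matches of GGGGCGGGG.
Wnt10b, chr15:98778151-98778400, minus strand: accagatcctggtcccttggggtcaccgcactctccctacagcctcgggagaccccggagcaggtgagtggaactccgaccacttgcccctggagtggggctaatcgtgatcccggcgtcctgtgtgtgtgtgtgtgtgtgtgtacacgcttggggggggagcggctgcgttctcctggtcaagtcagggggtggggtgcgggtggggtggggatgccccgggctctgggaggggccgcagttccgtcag
Wnt11, chr7:98834862-98835111, plus strand: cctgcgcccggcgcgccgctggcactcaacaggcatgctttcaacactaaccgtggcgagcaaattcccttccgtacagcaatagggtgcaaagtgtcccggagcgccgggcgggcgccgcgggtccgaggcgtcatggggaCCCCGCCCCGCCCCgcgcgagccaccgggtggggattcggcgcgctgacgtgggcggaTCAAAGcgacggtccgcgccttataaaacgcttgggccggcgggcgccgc
Wnt5b, outer start, chr6:119544348-119544597, minus strand: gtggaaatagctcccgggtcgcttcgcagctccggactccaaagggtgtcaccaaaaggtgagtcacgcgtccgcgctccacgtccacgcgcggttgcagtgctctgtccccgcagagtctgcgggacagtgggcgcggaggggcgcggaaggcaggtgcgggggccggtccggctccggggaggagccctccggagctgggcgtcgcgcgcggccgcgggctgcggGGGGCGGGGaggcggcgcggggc
Wnt5b, inner start, chr6:119449387-119449636, minus strand: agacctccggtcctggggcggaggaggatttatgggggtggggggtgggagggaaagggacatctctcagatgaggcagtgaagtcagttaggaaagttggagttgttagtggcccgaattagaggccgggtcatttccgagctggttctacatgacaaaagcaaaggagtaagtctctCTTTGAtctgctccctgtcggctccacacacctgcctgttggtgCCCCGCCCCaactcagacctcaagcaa
Wnt2b, chr3:104961710-104961959, minus strand: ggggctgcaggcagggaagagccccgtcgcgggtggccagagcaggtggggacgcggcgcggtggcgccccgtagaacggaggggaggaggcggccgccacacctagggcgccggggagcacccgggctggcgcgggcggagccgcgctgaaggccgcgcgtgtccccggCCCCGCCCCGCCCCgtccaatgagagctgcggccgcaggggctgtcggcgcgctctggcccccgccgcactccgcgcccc
Axin2, chr11:108920099-108920348, plus strand: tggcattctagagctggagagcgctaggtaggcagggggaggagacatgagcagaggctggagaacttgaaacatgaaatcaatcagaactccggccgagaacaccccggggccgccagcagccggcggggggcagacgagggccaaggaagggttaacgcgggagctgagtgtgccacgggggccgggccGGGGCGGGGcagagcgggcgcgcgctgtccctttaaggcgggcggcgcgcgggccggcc
CTTTGA occurred in 5 of the 35 windows (14.3%) against 13.8% of all 32851 windows of that length. Of the called genes Wnt11 had it, starting 50 bases before the start, and Wnt5b at its inner start, 71 bases before it. A further start of Wnt11 (chr7:98838595-98838844) and of Wnt5b (chr6:119467212-119467461), not printed, and the Wnt10b window held neither motif. GGGGCGGGG occurred in 15 of the 35 (42.9%) against 10.4% of all, and the median GC content was 66.8% against 52.4%. Such matches describe the letters only.

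Wnt5a (chromosome 14, 28504750 to 28527448, plus strand), the most abundant ligand, differed from the other ligands in its direction at day 21. It measured 49.1, 41.1, 42.0 and 45.5 CPM in day 7 PBS and 40.3, 24.0, 28.6, 29.7 and 33.4 CPM in day 7 LLC. At day 21 it measured 35.9, 26.9, 42.8 and 28.0 CPM in PBS and 20.4, 26.8, 18.9, 18.5 and 19.3 CPM in LLC. LLC values lay below all PBS values on both days, each time only narrowly. PBS library 2 was the lowest of its group on both days. LLC library 1 came close to it at day 7 and LLC library 2 at day 21. The LLC-minus-PBS log2 difference was -0.51 ± 0.13 at day 7 (edgeR adjusted p = 0.399) and -0.71 ± 0.17 at day 21 (adjusted p = 0.078). From day 7 to day 21 it was -0.58 ± 0.15 in LLC (adjusted p = 0.0581) and -0.41 ± 0.17 in PBS (adjusted p = 0.178). None of these passed, and at day 21 the adjusted p ran from 0.00951 to 0.377 over 19 alternatives.

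Wnt2, the fourth of the more abundant ligands, measured 9.73 to 10.8 CPM in day 7 PBS and 0.361, 0.755, 1.24 and 13.0 CPM in day 21 PBS. Library 4 was thus the highest of the 4 by a wide margin, and no edgeR comparison with all libraries passed (PBS, day 21 against day 7: -1.41 ± 0.76, edgeR adjusted p = 0.304). Wnt9a lay between 1.99 and 5.08 CPM and Wnt6 between 0.326 and 2.23 CPM, with no call in any comparison. Wnt4 lay at 1.55 CPM or below. Of the untested ligands, Wnt7b had 265 counts (13.0 CPM) in day 21 LLC library 1 and 11 or fewer elsewhere. That library also had the highest sum of skin and mammary epithelial markers, 76.0 CPM against 13.3 to 40.3 CPM in the other 17. Most of it was Krt8 (51.6 CPM) and Trp63 (16.5 CPM), and each other marker of the list was at 2.51 CPM or below there. Trp63 was higher in day 21 LLC libraries 4 (35.5 CPM) and 5 (28.9 CPM). The part of epithelial cells in the Wnt7b value was not tested.

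Wnt1 lies next to Wnt10b on chromosome 15 (98789857 to 98793837), 11706 bases away and transcribed in the opposite direction. It had 0 counts in all 4 day 21 PBS libraries and 4, 12, 7, 2 and 7 counts in the day 21 LLC libraries. At day 7 it had 1, 13, 2 and 4 counts in PBS and 5, 3, 10, 8 and 2 counts in LLC. Such counts did not pass the filter in the fits of all libraries. Wnt1 was tested and called lower in PBS at day 21 with no filter on low counts (1.77% of genes called), without day 7 PBS library 1 and without day 21 PBS library 4, and in the last of these fits it was also among the 9 called for the difference between days. In the authors' deposited table for day 21, Wnt1 (FDR 0.016), Wnt11 (FDR 0.0108) and Wnt10b (FDR 0.0243) were the 3 of the 50 genes under 0.05, all higher in LLC. In the authors' deposited table for day 7, none of the 50 was.

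Among the receptors, Fzd2 (chromosome 11, 102604396 to 102608058, plus strand) was the one that fell in PBS, by 1.35 ± 0.34 on the log2 scale (edgeR adjusted p = 0.0426). It measured 10.9, 9.33, 7.45 and 10.1 CPM in day 7 PBS and 3.07, 2.14, 2.15 and 7.44 CPM in day 21 PBS. The LLC libraries measured 7.79, 5.32, 9.23, 7.28 and 6.33 CPM at day 7 and 7.91, 6.84, 6.20, 5.64 and 3.73 CPM at day 21. The PBS groups barely parted, since day 7 library 3 and day 21 library 4 had almost the same level, and the call held in 9 of 19 alternatives.

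Fzd4 (chromosome 7, 89404355 to 89413134, plus strand) measured 454, 451, 368 and 431 CPM in day 7 PBS and 446, 357, 399, 400 and 390 CPM in day 7 LLC. The levels at day 21 were 552, 515, 525 and 319 CPM in PBS and 349, 286, 262, 156 and 407 CPM in LLC. The 3 highest values were day 21 PBS libraries 1 to 3, and library 4 of that group lay among the LLC values. The LLC-minus-PBS log2 difference at day 21 was -0.73 ± 0.27 (edgeR adjusted p = 0.159), and day 21 against day 7 in LLC was -0.45 ± 0.20 (adjusted p = 0.24). Fzd3 measured 9.76, 10.8, 8.69 and 10.6 CPM in day 7 PBS and 9.28, 7.25, 7.45, 8.15 and 7.52 CPM in day 7 LLC. These overlapped through LLC library 1, with a log2 difference of -0.32 ± 0.12 (adjusted p = 0.502). At day 21 Fzd3 measured 9.40, 9.19, 11.0 and 8.36 CPM in PBS and 6.00, 11.2, 6.55, 10.1 and 7.20 CPM in LLC, again overlapping.

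The co-receptors had narrow ranges. Lrp5 lay between 81.4 and 108 CPM and Lrp6 between 118 and 202 CPM over the 18 libraries, and their log2 differences stayed between -0.15 and 0.08 in all comparisons, none past the threshold. Fzd1, Fzd5, Fzd6, Fzd7, Fzd8 and Fzd10 had no call in any comparison, and Fzd9 had at most 0.570 CPM and no test.

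In the R-spondin axis, Rspo3 (chromosome 10, 29452416 to 29535867, minus strand), a secreted amplifier of Wnt signals, fell in PBS by 2.15 ± 0.50 on the log2 scale (edgeR adjusted p = 0.0303). It measured 1.77, 1.26, 1.60 and 0.994 CPM in day 7 PBS and 0.241, 0.441, 0.0652 and 0.492 CPM in day 21 PBS. In LLC it measured 0.680, 0.537, 0.540, 1.27 and 0.773 CPM at day 7 and 1.18, 0.760, 0.992, 0.317 and 0.734 CPM at day 21. Every day 21 PBS value lay below every day 7 PBS value, while LLC library 4 of day 21 lay inside the range of the day 21 PBS libraries. The tumour effect was -0.87 ± 0.32 at day 7 (adjusted p = 0.538) and 1.33 ± 0.57 at day 21 (adjusted p = 0.201), and their difference was 2.22 ± 0.64 (adjusted p = 0.0979). At these levels a value of 0.0652 CPM is 1 count, and 13.1% of the exon bases of Rspo3 overlap Gm48159 on the other strand; the library kit named in the labels marks no strand, so reads of such pairs cannot be told apart. The call held in 9 of 18 alternatives.

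Rspo1 measured 0.851, 1.14, 0.616 and 1.34 CPM in day 7 PBS and 0.866, 1.02, 0.972, 1.88 and 1.69 CPM in day 7 LLC. Day 21 libraries measured 0.181, 0.692, 0.717 and 0.676 CPM in PBS and 0.688, 1.29, 0.794, 0.570 and 0.600 CPM in LLC. The groups overlapped within each day, and the day 21 against day 7 differences were -0.80 ± 0.43 in PBS (edgeR adjusted p = 0.305) and -0.70 ± 0.37 in LLC (adjusted p = 0.329). Lgr4, the main LGR receptor of this tissue, measured 39.0, 42.6, 32.6 and 40.8 CPM in day 7 PBS and 43.8, 40.4, 51.0, 33.7 and 34.5 CPM in day 7 LLC. It measured 28.6, 47.7, 41.2 and 25.6 CPM in day 21 PBS and 28.7, 24.2, 26.5, 34.3 and 53.3 CPM in day 21 LLC. All 4 groups of Lgr4 overlapped and nothing passed. Lgr5 reached 1.87 CPM at most, and Rspo2, Rspo4 and Lgr6 had no test.

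Among the secreted antagonists, Sfrp2 and Sfrp4 spread widely between libraries of 1 group. Sfrp2 measured 210, 137, 163 and 204 CPM in day 7 PBS and 183, 80.7, 162, 116 and 42.0 CPM in day 7 LLC. At day 21 it measured 3.55, 5.41, 3.98 and 135 CPM in PBS and 84.0, 46.2, 24.8, 15.6 and 27.4 CPM in LLC. All day 21 PBS values lay below all day 7 PBS values, though library 4 came close to the lowest of them, and the other 3 lay below all 15 remaining libraries. The log2 difference between the PBS groups was -2.27 ± 0.94 (edgeR adjusted p = 0.183) and passed without library 4. Day 21 against day 7 in LLC was -1.56 ± 0.82 (adjusted p = 0.323). Sfrp4, a close relative, measured 1.45, 3.15, 1.63 and 77.0 CPM in day 21 PBS and 56.3 to 76.6 CPM in day 7 PBS. There library 4 exceeded every day 7 value, and the log2 difference between the PBS groups was -1.66 (edgeR adjusted p = 0.327).

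Sfrp1 measured 19.6, 15.2, 17.9 and 23.0 CPM in day 7 PBS and 14.6, 11.2, 19.1, 12.1 and 9.35 CPM in day 7 LLC. The levels at day 21 were 5.72, 3.97, 3.13 and 8.11 CPM in PBS and 35.4, 15.9, 5.95, 5.64 and 6.87 CPM in LLC. The PBS groups did not overlap, with a log2 difference of -1.85 ± 0.50 that just missed the threshold (edgeR adjusted p = 0.0537). The LLC-minus-PBS difference was -0.51 ± 0.19 at day 7 (adjusted p = 0.538) and 1.39 ± 0.61 at day 21 (adjusted p = 0.204), where LLC libraries 1 and 2 were the highest.

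Dkk2, a blocker of the LRP co-receptors, measured 21.0, 9.69, 13.4 and 13.6 CPM in day 7 PBS and 10.4, 8.75, 10.6, 7.13 and 2.81 CPM in day 7 LLC. Day 21 libraries measured 1.69, 2.08, 1.24 and 8.23 CPM in PBS and 6.98, 3.28, 1.34, 1.33 and 0.934 CPM in LLC. It was lower at day 21 in both arms, by log2 differences of -2.12 ± 0.65 in PBS (edgeR adjusted p = 0.0812) and -1.51 ± 0.58 in LLC (adjusted p = 0.173), and PBS library 4 and LLC library 1 were the highest of their groups. Unlike Wnt10b, Dkk2 was about as low in day 21 LLC libraries 3 to 5 as in PBS libraries 1 to 3.

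Frzb, a secreted relative of the frizzleds, measured 2.42, 1.55, 0.924 and 1.34 CPM in day 7 PBS and 1.36, 1.83, 1.24, 1.32 and 0.422 CPM in day 7 LLC. At day 21 it measured 2.77, 3.08, 1.89 and 1.60 CPM in PBS and 0.393, 1.23, 1.39, 0.697 and 0.600 CPM in LLC. All LLC values of day 21 lay below all PBS values of that day, with a log2 difference of -1.45 ± 0.42 (edgeR adjusted p = 0.104; 0.0261 to 0.285 over 19 alternatives). Sfrp5 lay between 9.39 and 26.4 CPM in all libraries and Dkk3 between 0.964 and 7.55 CPM, with no call, and Dkk1, Dkk4 and Wif1 had no test. Wif1 had 34 of its counts in day 21 LLC library 3 (1.69 CPM), the library in which the 8 B cell and lymph node markers summed to 1500 CPM against 2.29 to 14.7 CPM elsewhere; their part in the Wif1 value was not tested.

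Axin2 (chromosome 11, 108920349 to 108950783, plus strand) is both a scaffold of the destruction complex and a gene that beta-catenin signalling switches on, and is often read as a gauge of that signalling. It measured 17.4, 20.4, 22.2 and 17.2 CPM in day 7 PBS and 15.2, 9.51, 9.93, 16 and 18.8 CPM in day 7 LLC. The levels at day 21 were 8.43, 7.18, 14 and 6.02 CPM in PBS and 10.5, 17.4, 13.9, 14.1 and 13.5 CPM in LLC. The PBS groups did not overlap, and here library 4 was the lowest of its group and library 3 the highest. In PBS Axin2 fell by 1.11 ± 0.25 on the log2 scale (edgeR adjusted p = 0.0287), a call that held in 12 of 19 alternatives. The tumour effect was -0.47 ± 0.20 at day 7 (adjusted p = 0.56) and 0.62 ± 0.26 at day 21 (adjusted p = 0.19), and their difference was 1.11 ± 0.34 (adjusted p = 0.107).

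Axin1, the partner scaffold that is not known as a target, measured 31.6, 32.9, 35.1 and 36.7 CPM in day 7 PBS and 28.1, 30.3, 32.1, 33.7 and 35.1 CPM in day 7 LLC. It measured 31.7, 30.5, 28.4 and 37.6 CPM in day 21 PBS and 41.8, 35.9, 38.2, 32.1 and 29.7 CPM in day 21 LLC. All 4 groups overlapped and no comparison passed.

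Other genes of the pathway were counted from 2 lists, 46 genes of the signalling machinery and 18 genes often read as targets. Of 42 machinery genes tested in the PBS comparison 1 was higher and 1 lower, where 3.21% of all genes were called, with a median log2 fold change of -0.02 against 0.01 over all genes. Vangl1, a planar cell polarity protein, fell by 0.81 ± 0.16 (edgeR adjusted p = 0.0167), from 22.1 to 12.6 mean CPM. Dvl1, a dishevelled protein that relays the signal from frizzleds, rose by 0.33 ± 0.08 (adjusted p = 0.0334), from 58.7 to 73.7 mean CPM. Of 15 targets tested 1 was lower, Fgf9, a growth factor, by a log2 change of -2.34 ± 0.51 (adjusted p = 0.0255), and the median was -0.29 against 0.01 over all genes. No gene of either list passed in the other 4 comparisons. Those nearest at day 21 were Dvl1 (53.5 mean CPM in LLC against 73.7 in PBS; -0.48 ± 0.10, adjusted p = 0.0634) and Ctnnbip1, an inhibitor of beta-catenin (-0.48 ± 0.10, adjusted p = 0.0638). At day 21 the target list had a median of 0.85 with 10 of 15 positive, against a median of 0.02 and 51.9% positive over all genes. Several of these were led by 1 library. Tcf7 (21 CPM) and Lef1 (4.17 CPM) peaked in LLC library 3, where B cell and lymph node markers summed to 1500 CPM. In the other LLC libraries they measured 1.08 to 1.82 CPM and 0.333 to 0.819 CPM. Ccnd1 (114 CPM), Cd44 (111 CPM) and Myc (89 CPM) peaked in LLC library 1. Myc did not rest on it alone. It measured 15.4, 26.4, 33.4 and 26.5 CPM in LLC libraries 2 to 5, against 6.87 to 16.6 CPM in day 21 PBS. Cd44 measured 21.1 to 59.8 CPM in those LLC libraries, against 10.5 to 46.8 CPM in PBS. Fgf9, Nkd2 and Tnfrsf19 were not led by 1 library. The part of lymph node cells was not tested.

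**Figure D5:**
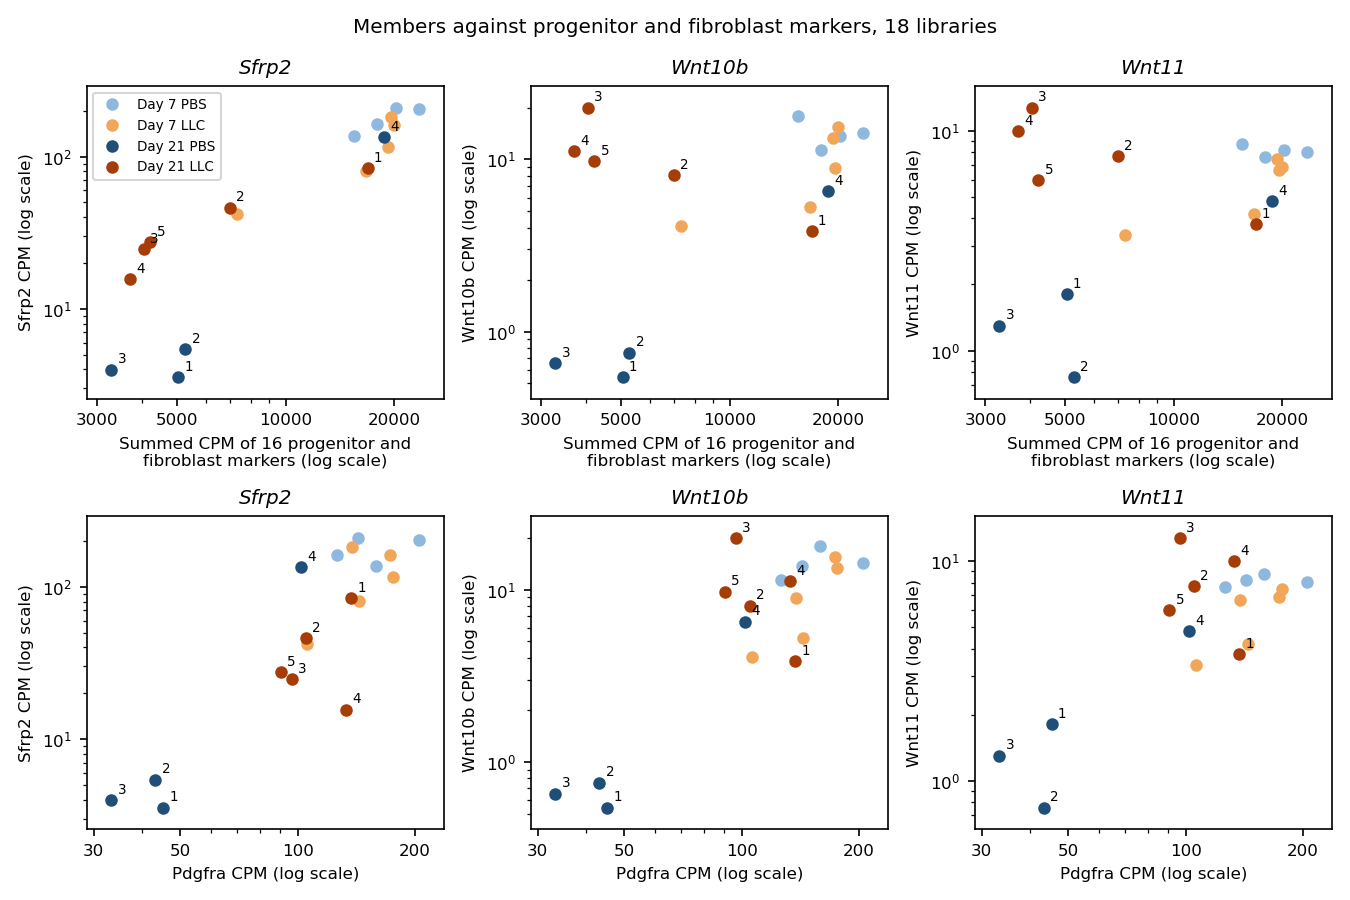
Sfrp2, Wnt10b and Wnt11 CPM (y axes, log scale) against the summed CPM of 16 progenitor and fibroblast markers (top) and against Pdgfra CPM (bottom), both on log scales, 1 point per library, day 21 libraries numbered. Day 21 PBS libraries 1 to 3 sit lowest in Pdgfra (33.3 to 45.3 CPM) and lowest in all 3 genes, while by the summed markers LLC libraries 3 to 5 overlap with them.

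Progenitor and fibroblast markers were also lower in PBS at day 21. Within day 21 PBS their sum was highest in library 4, where Wnt10b, Wnt11, Wnt5b, Fzd2 and Rspo3 were highest too. The sum was lowest in library 3, where Wnt2b and Axin2 were highest, and Axin2 was lowest in library 4. Of the 16 markers, all had a negative log2 fold change from day 7 to day 21 in PBS, against 49.1% of genes. Among them 5 passed as lower (2.52% of genes), and the median was -1.32. At day 21 their sum in PBS libraries 1 to 3 (3280 to 5270 CPM) was close to that in LLC libraries 3 to 5 (3690 to 4210 CPM), and LLC library 2 had 7010 CPM. Single markers differed in direction between PBS libraries 1 to 3 and LLC libraries 2 to 5: 9 of the 16 were lower in every one of the PBS libraries, 2 were higher and 5 overlapped. These libraries were chosen by their marker sums. The share of all genes that parted in this way was not counted, so these counts have no background to be set against. The 2 higher ones were the collagen Col15a1 (264 to 342 CPM against 31.5 to 143 CPM) and Lox, an enzyme that cross-links collagen (102 to 132 CPM against 54.3 to 101 CPM), and the collagens Col1a1, Col1a2 and Col3a1 were among those that overlapped. Pdgfra, a receptor that marks fat progenitors, measured 33.3 to 45.3 CPM against 90.7 to 133 CPM, and Dpp4, a surface peptidase of early progenitors, 3.01 to 7.43 CPM against 67.5 to 112 CPM. Over the same libraries Wnt10b measured 0.542 to 0.755 CPM against 8.07 to 20 CPM, Wnt11 0.755 to 1.81 CPM against 6.00 to 12.8 CPM, and Sfrp2 3.55 to 5.41 CPM against 15.6 to 46.2 CPM. Other genes overlapped between these libraries: Dkk2 measured 1.24 to 2.08 CPM against 0.934 to 3.28 CPM, Axin2 7.18 to 14 CPM against 13.5 to 17.4 CPM and Rspo3 0.0652 to 0.441 CPM against 0.317 to 0.992 CPM. The part of progenitor, macrophage and lymphatic cells in these differences was not tested. Day 21 PBS library 4 and LLC library 1 had the highest day 21 sums of the 16 markers. In LLC library 1 collagens such as Col3a1 were high (6850 CPM against 174 to 1870 CPM in LLC libraries 2 to 5). Dpp4 (53.2 CPM against 67.5 to 112 CPM) and Pi16 (201 CPM against 206 to 484 CPM) were lower there. An alternative chosen after the data were seen left these 2 libraries out. In it 14 of 33 genes were lower in PBS at day 21 than at day 7 (17.5% of genes called). Of 31 genes, 6 were higher in LLC than in PBS at day 21 (8.71% of genes), and 4 of 33 were lower in LLC at day 21 than at day 7 (9.8% of genes).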

How the data were processed

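Inguinal fat RNA of 18 samples in 4 groups was analysed (D7 and D21 below stand for day 7 and day 21). Counts per gene were deposited by the authors as whole numbers (100% of entries). Reads were trimmed with fastp 0.23.0 and quantified with RSEM against mm10 (GRCm38), per the submitters' processing notes, and 176 entries with a count of 0 but a TPM above 0 look like rounded estimates. Which aligner, gene annotation and test the authors used is not given in the sources used here. TPM values were scaled for length by the authors, per the file headers. The authors also deposited a mean signal (mean TPM) per group, its log2 ratio, and p-values with an FDR; of these only the FDR is quoted, and it is named where it is.

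Counts were tested across all genes with edgeR 4.0.16 (quasi-likelihood, filterByExpr, TMM) in R 4.3.3: LLC against PBS within each day, and the day comparisons and their interaction in 1 fit of 18 libraries. P-values were Benjamini-Hochberg adjusted over all genes tested, with a threshold of 0.05. SEs are approximate, taken from each log2 fold change and its F statistic (the ratio of the first to the square root of the second). The code was tested on simulated data. CPM values use 1 TMM scaling of all 18 libraries, whose totals ranged from 14566155 to 18969387 counts. Alternatives were DESeq2 1.42.0, its size factors, other filters on low counts, a robust fit, limma 3.58.1 on log2(TPM + 1) and log2(TPM + 0.1), a replicate block, and each library left out. Replicates of a group differed by more than sampling noise (chi-square per gene at least 15.2 over 32 pairs), and all were kept. Replicate numbers were not taken to pair samples. Gene positions are from GENCODE vM21.

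The genes and lists were chosen with earlier results of these data known. Values in every library are given for genes called in a comparison, for up to 5 genes with the smallest p where fewer were called, for Axin2 and for the most abundant gene of each role; Wnt2, Sfrp4, Wnt1, Pdgfra and Dpp4 were added after their values were seen.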

Additional observations from a re-analysis of the deposited data

Results flagged for a closer look

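In 125 sets of 1 gene in 1 group of 4 or 5 libraries, the library farthest from the others was compared with the group's range, and 16 stood apart. Only sets with at least 20 counts in a library were examined, so some low genes entered only through the library then flagged high. The rule flags about 1 of 20 sets of independent, normally spread values. These sets are not independent and were filtered in this way, so the 16 cannot be set against that rate. 6 of the 16 were in day 21 PBS library 4. There Sfrp2 measured 135 CPM against 3.55 to 5.41 CPM in the other 3, Sfrp4 77 CPM against 1.45 to 3.15 CPM, and Wnt2 13 CPM against 0.361 to 1.24 CPM. Wnt10b measured 6.51 CPM against 0.542 to 0.755 CPM and Dkk2 8.23 CPM against 1.24 to 2.08 CPM, while Fzd4 was low with 319 CPM against 515 to 552 CPM.

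In day 21 LLC library 1, Wnt7b measured 13 CPM against 0 to 0.468 CPM in the other 4 and Rspo2 1.23 CPM against 0 to 0.351 CPM. LLC library 3 of day 21 had Wif1 at 1.69 CPM against 0.0633 to 0.409 CPM and Wnt6 at 1.69 CPM against 0.934 to 1.13 CPM. Wnt5a measured 26.8 CPM in day 21 LLC library 2 against 18.5 to 20.4 CPM, and Fzd1 43.6 CPM in library 5 against 26.1 to 29.4 CPM. Wnt4 measured 1.39 CPM in day 21 PBS library 1 against 0.0614 to 0.252 CPM, and 1.55 CPM in day 7 LLC library 5 against 0 to 0.27 CPM. In day 7 PBS, Fzd1 was low in library 3 with 28.8 CPM against 38.8 to 39.7 CPM, and Fzd7 in library 2 with 14.9 CPM against 19.4 to 19.9 CPM.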

How the results depend on the processing

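The counts are of the Wnt ligands, receptors, antagonists and related genes described above. In LLC against PBS at day 7 none of them passed under any alternative run. At day 21 LLC against PBS gave 4 calls with DESeq2, 7 in 1 fit of all 18 libraries and 0 to 7 with a library left out. The difference between days gave 5 calls with DESeq2 and 0 to 9 with a library left out. Day 21 against day 7 in PBS gave 7 calls, 11 with limma on log2(TPM + 0.1), and 0 to 14 with a library left out. Over all genes the main fit called 449 of 13975 and that limma fit 461 of 15436. In LLC it gave 1 call with DESeq2 and 0 to 2 with a library left out. Alternatives chosen after seeing the data were also run. Without day 21 PBS library 4 and LLC library 1 the counts were 6 at day 21, 9 for the difference, 14 in PBS and 4 in LLC. In the same order these fits called 1184 of 13599, 1383 of 14080, 2457 of 14080 and 1380 of 14080 genes. Without day 7 PBS library 3 and LLC library 3 the PBS count was 1, and with only the 8 PBS libraries fitted it was 4. The cause of these shifts was not tested. With the replicate number as a block the counts were 0 at day 7, 0 at day 21, 0 for the difference, 6 in PBS and 0 in LLC. Over all genes these block fits called 1 of 13374, 2 of 13441, 75 of 13913, 524 of 13975 and 132 of 13975. Deviations of same-numbered samples correlated between -0.34 and 0.58 over all pairs of groups. Between PBS and LLC at day 7 they ran from 0.09 to 0.49, against -0.35 to 0.24 for unlike numbers. At day 21 the same-numbered ones ran from -0.27 to 0.24. The numbers were thus not shown to pair samples throughout. Of 729 alternatives for single genes, 630 kept direction and side of the threshold, 62 lost it, 37 gained it and 0 reversed. Only a call could be lost, so all 62 fell on the 7 genes called in PBS. They ranged from 4 of 19 alternatives for Wnt5b to 13 of 19 for Wnt2b. Genes near 1 CPM, such as Rspo3 and Wnt2b, rest on few counts.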
